A study of Mus musculus with 84 samples.

Results

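The immediate early genes Fos, Fosb, Junb, Egr1, Nr4a1, Arc, Ier2, Dusp1, Btg2 and Npas4 were followed through sensory neurons taken singly from mouse vagal ganglia. The genes were chosen by name as rows of a count table of 50686 genes, and all 10 were found. Each was expressed as CPM (the gene's share of all counts in a neuron, times 1e6) in the 72 of 84 neurons with a total count of 5000000 or more. The neurons came from C57BL/6 mice and innervated the airways: the membrane dye DiI (2%) had reached their cell bodies along the axon. Traced cells were picked one at a time, their mRNA was amplified, and reads of 76 bases were taken on a NextSeq 500. The labels form 1 group and name no animal, age, treatment, dissociation step or time to lysis, so the neurons are not replicates of a condition and no test was run. Spread is given over neurons, and intervals on shares are exact (Clopper-Pearson, 95%) and cover counting error only.

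Immediate early genes are switched on within minutes of a stimulus, without the need for new protein, because the factors that bind their promoters are already present and are activated by phosphorylation. In sensory neurons the stimuli include firing, calcium entry, growth factors, axon damage and the handling of tissue during cell isolation. Fos, Fosb and Junb encode subunits of the AP-1 transcription factor, Egr1 a zinc finger factor, Nr4a1 an orphan nuclear receptor and Npas4 a factor tied to calcium entry in neurons. Arc encodes a synaptic protein that moves glutamate receptors, Dusp1 a phosphatase that switches off MAP kinases, Btg2 an antiproliferative regulator of mRNA decay, and Ier2 a small nuclear protein of less certain role.

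The cyclic AMP response element (CRE), bound by CREB, has the core TGACG and the full palindrome TGACGTCA. The 250 bases upstream of the start were in the RefSeq promoter table (GRCm38.p6) for 7 members, namely Fos, Fosb, Junb, Nr4a1, Dusp1, Btg2 and Npas4. The core stood on one strand or the other (TGACG or CGTCA) in all 7 windows, against 17.8% of the 32841 windows in the table and 20.2% of those of protein-coding genes. The stretches that hold the cores are shown 5′ to 3′ on the gene's strand, with each core in capitals and 15 bases kept on either side. This core is shown because, of the motifs searched, it alone stood in all 7 windows. Egr1, Arc and Ier2 had no window to search. The Npas4 stretch lies in an annotated leader exon and is not shown. The Nr4a1 and Dusp1 stretches lie inside the GENCODE M21 spans of these genes, which begin farther upstream.
Fos, chr12:85473746-85473843, + strand: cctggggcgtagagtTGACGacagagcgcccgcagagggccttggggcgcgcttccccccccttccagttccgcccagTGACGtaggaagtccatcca
Fosb, chr7:19310086-19310120, - strand: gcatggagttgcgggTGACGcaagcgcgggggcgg
Junb, chr8:84978835-84978869, - strand: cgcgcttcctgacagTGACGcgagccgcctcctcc
Nr4a1, chr15:101266598-101266825, + strand: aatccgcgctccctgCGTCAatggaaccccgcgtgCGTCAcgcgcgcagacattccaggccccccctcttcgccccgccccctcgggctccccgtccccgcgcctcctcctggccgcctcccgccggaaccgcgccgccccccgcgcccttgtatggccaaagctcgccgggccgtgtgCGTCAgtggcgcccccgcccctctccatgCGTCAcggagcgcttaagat
Dusp1, chr17:26508593-26508678, - strand: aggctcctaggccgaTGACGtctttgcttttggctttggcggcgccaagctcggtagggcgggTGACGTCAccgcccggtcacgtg
Btg2, chr1:134079299-134079336, - strand: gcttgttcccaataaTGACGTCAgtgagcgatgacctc

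Dusp1 and Btg2 held the full palindrome TGACGTCA, which 1.55% of all windows hold and within which the core is read on both strands. Nr4a1 held 4 separate cores, and 0.137% of all windows held 4 or more, a cut taken from Nr4a1 itself. The EGR motif GCGNGGGCG stood in the windows of Fosb, Nr4a1 and Btg2, against 4.70% of all windows, and TATAAA stood in the Fos window, against 12.4%. No window of the 7 held the AP-1 motif TGANTCA (6.75% of all windows) or a CArG box (1.47%). Motifs were searched on both strands, and a match describes the letters in a window.

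The label of neuron was checked against marker genes before the members were read. Snap25, Stmn2 and Prph, genes of synaptic release, growth cones and peripheral neurofilaments, reached 10 CPM in 72 of 72 neurons. Rbfox3 did so in 54, and the remaining neuronal genes listed in 68 (Nefm and Elavl4) to 71 (such as Tubb3). The 10 neuronal genes listed summed to between 499.4 and 33014 CPM, and the 9 satellite glia genes to between 25.6 and 56805 CPM. In 7 neurons, called glia-heavy, the glia genes summed to more than the neuronal genes: AM002, AM005, AM023, AM078, AM244, AM251 and AM287. All 7 were kept, and the members' extremes that fall in them are also given without them. AM230, outside the 7, came close, with glia genes at 14251 CPM and neuronal genes at 16292 CPM. Markers of endothelium, leukocytes and erythrocytes summed to medians of 0, 0.0686 and 0.281 CPM, those of fibroblasts to 45.8 CPM (at most 876) and those of Schwann cells to 717 CPM (1.96 to 12532). Totals of the kept neurons ran from 6732279 to 20668832, so 10 CPM, the level called detected, stood for at least 67.3 counts. The number of other genes detected had a median of 5850.5, and the 36 neurons above it (median 7989) are called gene-rich and the 36 below it (median 3178.5) gene-poor, a split made from the data and not from the labels.

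Fos and Egr1 were abundant in nearly all neurons, Dusp1, Fosb and Btg2 were present in more neurons than not, and Junb, Ier2, Nr4a1, Arc and Npas4 were in a minority. A kept neuron had a median of 5 of the 10 members (quartiles 3 and 6), and the range was 0 to 9. The member counts peaked at 6 members (14 neurons) and at 4 and 7 members (12 neurons each). AM297 had none, and AM230 and AM237 had 9. The 10 members together took from 12.4 CPM in AM297 to 28487 CPM in AM230, with a median of 1559 CPM. In 5 of the 10 members detection reached 50% of the neurons, against 34% of the 16068 genes seen at 10 CPM in at least 1 neuron.

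**Figure D1:**
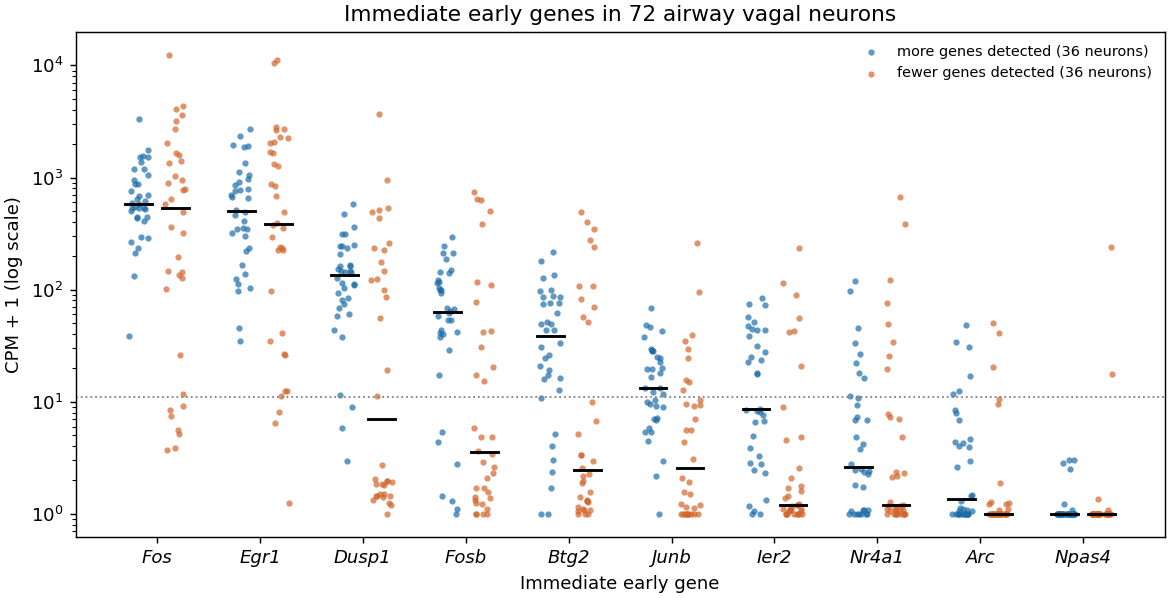
Level of each immediate early gene in each of 72 neurons as CPM + 1 on a log axis. Points are neurons, split into gene-rich (blue) and gene-poor (orange), black bars are medians and the dotted line marks 10 CPM. Fos and Egr1 lie above the line in 65 and 69 neurons, and in gene-poor neurons Dusp1 divides into 18 neurons above it and 18 below 3 CPM.

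Among the AP-1 genes, Fos (chr12:85473890-85477273, + strand, GENCODE M21 on GRCm38) ran from 2.70 CPM in AM251 (2.84 CPM at least without the 7 glia-heavy neurons) through a median of 580.2 CPM to 12336 CPM in AM230. It was detected in 65 of 72 neurons (90.3%, 80.99 to 96.0%), and at least 1 count was present in all of them. In 21 neurons it exceeded 1000 CPM, and AM230 held 16.6% of the sum over neurons. The middle of the distribution was narrow beside its ends, with quartiles of 227.9 and 1187 CPM.

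Fosb (chr7:19302696-19310051, - strand), a paralog of Fos, ran from 0 through a median of 37.97 CPM to 744 CPM in AM023, a glia-heavy neuron (626 CPM at most without the 7). It was detected in 43 neurons (59.7%, 47.5 to 71.1%), and 42 of these also had Fos. Junb (chr8:84974484-84978718, - strand), a dimer partner of both, ran from 0 through 8.22 CPM to 257.7 CPM in AM002 (66.98 CPM at most without the 7 glia-heavy neurons) and was detected in 30 neurons (41.7%, 30.2 to 53.9%), all of which had Fos. Only 3 neurons had Junb at 50 CPM or more, so most Junb levels lay close to the threshold. The end of Junb overlaps Prdx2 on the opposite strand, a gene with a median of 395 CPM here. Reads from overlapping genes cannot be told apart where counting ignores strand, and no source used here gives the strand setting.

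Egr1 (chr18:34859823-34864984, + strand) ran from 0.244 CPM in AM002 (5.45 CPM at least without the 7 glia-heavy neurons) through a median of 473 CPM to 11096 CPM in AM230. It was detected in 69 neurons (95.8%, 88.3 to 99.1%), the highest share of the 10, and it exceeded 1000 CPM in 21. AM005 came second at 10562 CPM, and the neuron after it had 2816 CPM, so 2 neurons stood well above the rest. Nr4a1 (chr15:101254269-101274795, + strand) ran from 0 through 1.30 CPM to 667 CPM in AM005, with 382 CPM in AM002, and was detected in 17 neurons (23.6%, 14.4 to 35.1%). Both of those neurons were among the 7 in which glia genes outweighed neuronal genes, and without the 7 the highest Nr4a1 level was 119 CPM, with 14 of 65 neurons detected.

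The neuronal activity genes Arc and Npas4 were the rarest. Arc (chr15:74669083-74672570, - strand) had a median of 0.0251 CPM and a maximum of 49.2 CPM in AM248, and 9 neurons passed 10 CPM (12.5%, 5.88 to 22.4%). Npas4 (chr19:4984355-4990316, - strand) had 0 counts in most neurons. It passed 10 CPM in 2 neurons (2.78%, 0.338 to 9.68%), at 237.4 CPM in AM230 and 16.6 CPM in the next neuron. AM230 alone held 90.6% of all Npas4, so its average level describes a single cell.

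The feedback genes were present in intermediate shares. Dusp1 (chr17:26505590-26562128, - strand) ran from 0 through 100.5 CPM to 3711 CPM in AM230 and was detected in 51 neurons (70.8%, 58.9 to 80.95%). Its levels fell into separate ranges: 19 neurons lay below 3 CPM, 2 between 3 and 10 CPM, and 46 at 50 CPM or more. Of the 36 gene-poor neurons 18 lay below 3 CPM and 18 at 10 CPM or more, where the median was 199 CPM. Ergic1, on the opposite strand of a long annotated form of Dusp1, had a median of 8.32 CPM.

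Btg2 (chr1:134075170-134079120, - strand) ran from 0 through 15.8 CPM to 492 CPM in AM230 and was detected in 39 neurons (54.2%, 42.004 to 65.98%). In gene-poor neurons 22 lay below 3 CPM and 11 at 10 CPM or more, with a median of 107 CPM among those 11. Ier2 (chr8:84661331-84662852, - strand) ran from 0 through 2.58 CPM to 233 CPM in AM072 and was detected in 24 neurons (33.3%, 22.7 to 45.4%). Between 3 and 10 CPM lay 20 neurons for Junb, and 0 (Npas4) to 11 (Ier2 and Nr4a1) neurons for the other members.

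Per kb of exon, the order of the median levels was Fos (247 CPM per kb), Egr1 (106), Dusp1 (30.3), Fosb (6.08), Btg2 (5.76), Junb (3.57), Ier2 (1.69), Nr4a1 (0.37), Arc (0.0082) and Npas4 (0). Fosb and Btg2 were neighbours with overlapping quartiles in CPM (1.27 to 103 and 0.943 to 75.2). Fos was the highest member per kb in 54 neurons, Egr1 in 16, and Junb and Dusp1 in 1 each. Fos and Egr1 together made up a median of 83.2% of the members' CPM, with a range from 2.71 to 99.8%.

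Fos, Egr1 and Dusp1 varied more among neurons than most genes did. The SD of log2(CPM + 10) was 2.25 for Fos, 2.27 for Egr1 and 2.11 for Dusp1, against a median of 1.58 over the 5458 genes detected in at least 50% of neurons. Those values stood at the 98.1, 98.2 and 95.3 percentiles of these genes, and at the 87.9, 90.2 and 89.7 percentiles of genes whose mean level was within 1.5-fold of their own. Fosb, at 1.86, stood at the 81.1 percentile and Btg2, at 1.66, at the 59.8 percentile, or at the 87.8 and 82.8 percentiles of genes of like mean. Junb had an SD of 0.95, which stood at the 21.1 percentile of genes of like mean.

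**Figure D2:**
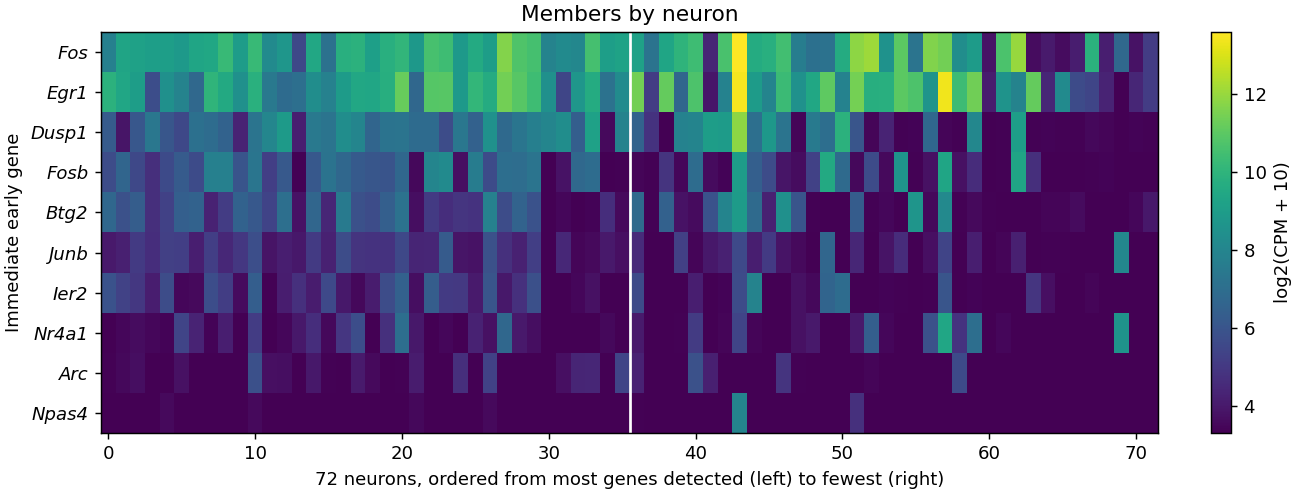
log2(CPM + 10) of the 10 members (rows) in 72 neurons (columns), ordered by the number of genes detected from most to fewest, with a white line between the 36 gene-rich and 36 gene-poor neurons. Fos and Egr1 are high in nearly all gene-rich neurons, and in gene-poor neurons each member is high in some and near its floor in others.

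Fos and Egr1 were detected in 36 of 36 gene-rich neurons and in 29 and 33 of the gene-poor. Dusp1 was detected in 33 gene-rich and 18 gene-poor neurons, Fosb in 29 and 14, Btg2 in 28 and 11, Junb in 21 and 9, and Ier2 in 17 and 7. These 5 members differed by 20 percentage points or more, as did 52.9% of all genes, in the same direction. Nr4a1 was detected in 9 and 8 neurons and Arc in 6 and 3, and both Npas4 neurons were gene-poor. The members' share of such differences was therefore close to the share among all genes.

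The middle level of Fos was alike on both sides of the split and its spread was not. In gene-rich neurons Fos ran from 37.4 through 582 to 3325 CPM, and in gene-poor neurons from 2.70 through 536 to 12336 CPM. Its quartiles were 443 and 980 CPM in the gene-rich and 82.1 and 1454 CPM in the gene-poor. The SD of its log2 level was 1.14 and 2.92, a ratio of 2.57, against a median ratio of 2.14 over genes detected in at least 50% of neurons. For Egr1 the SD was 1.51 and 2.84. The SD was larger in gene-poor neurons for 9 of the 10 members, Arc being the exception, and for 67.6% of all genes. Among the 5458 genes detected in at least 50% of neurons it was larger for 98.1%. Ranked over all 72 neurons, 6 of the 10 members correlated with the number of genes detected at 0.3 or more, from 0.36 for Arc and Dusp1 to 0.52 for Ier2, against 76.9% of all genes.

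Fos was below 10 CPM in 7 neurons, all gene-poor and all with identifiers from AM251 to AM297. They had 958 to 2248 genes detected and totals of 8889938 to 15677023, so they were not shallow. Their neuronal genes summed to between 9812 and 30447 CPM, within the range of the other neurons. In AM278 Egr1 was at 2314 CPM with Fos at 2.84 CPM, and in AM251 Egr1 was at 291.3 CPM with Fos at 2.70 CPM. The other 5 (AM286, AM288, AM289, AM295 and AM297) had Egr1 between 7.02 and 40.3 CPM and all members together at 12.4 to 50.7 CPM. In those 5 cells Fos, Fosb, Dusp1, Btg2 and Junb were all below 10 CPM.

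In other neurons some members were high and others low. AM258 had Dusp1 at 514 CPM with Fos at 10.7 and Egr1 at 5.45 CPM. The glia-heavy AM002 had the highest Junb and the lowest Egr1 of all. At the other end, AM230 and AM005 had the highest mean log2(CPM + 10) over the 10 members, 8.48 and 7.33, against a median of 5.50. AM230 led for 5 members, and its glia genes (14251 CPM) came close to its neuronal genes (16292 CPM). The glia-heavy AM005, with a glia sum of 8179 CPM, had Egr1 at 10562 CPM and Fos at 2698 CPM with Dusp1 at 1.06 CPM.

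**Figure D3:**
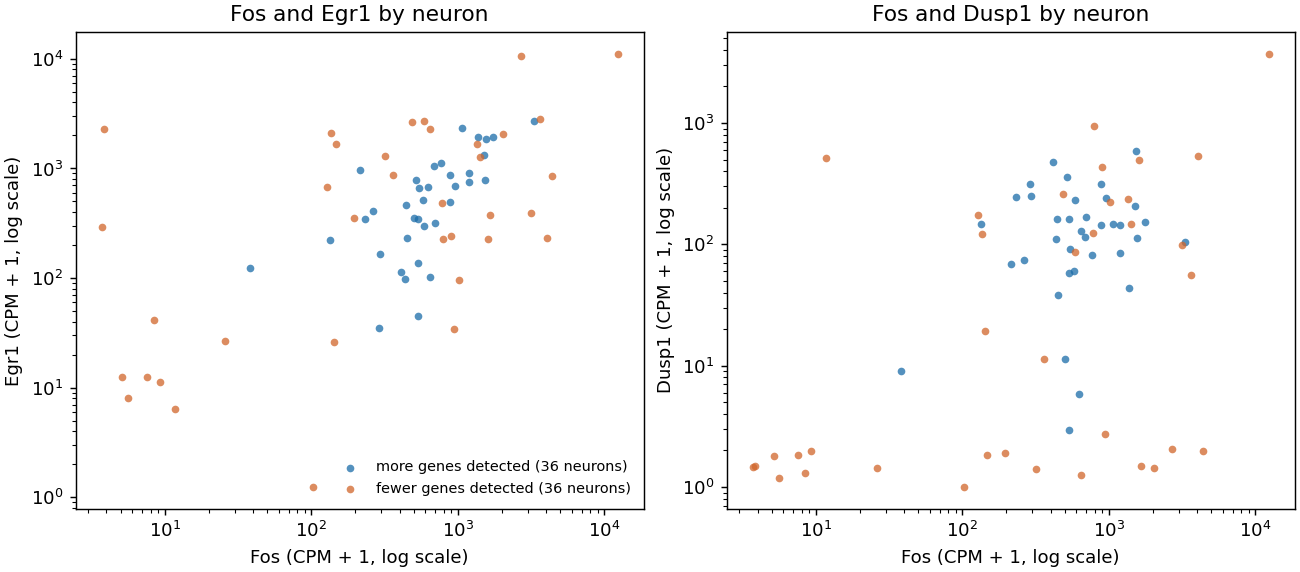
Fos against Egr1 (left) and Fos against Dusp1 (right), each point a neuron, CPM + 1 on log axes, gene-rich in blue and gene-poor in orange. Fos and Egr1 lie within 4-fold of each other in 31 of 36 gene-rich and 19 of 36 gene-poor neurons, and Dusp1 has a row of neurons near 1 CPM at all levels of Fos.

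The members varied together in part. Over the 72 neurons the 45 pairs had a median Spearman rank correlation of 0.29, and 44 of the 45 were above 0. Without the 7 glia-heavy neurons the median was 0.30. The closest pair was Fosb with Ier2 (0.66), followed by Fosb with Egr1 and with Fos (0.56 each), Fosb with Junb (0.53), Fos with Egr1 (0.51) and Junb with Ier2 (0.51). Arc, which had at least 1 count in only 36 of the 72 neurons, stood apart, with a correlation of -0.0531 with Fos and 0.0686 with Egr1. Dusp1 went with Fosb (0.39) and Fos (0.34) but barely with Egr1 (0.0585) or Nr4a1 (0.0414). Neurons share library chemistry and differ in the number of genes captured, so these are descriptions without a p-value.

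Against all genes, the co-variation of the members showed once the number of genes detected was taken into account. Without that step, the 5458 genes detected in at least 50% of neurons had pairs with a median of 0.28, and 44.7% of their pairs reached 0.3, against 44.4% of the member pairs. With the rank of genes detected removed (partial rank correlation), the median was 0.21 for the members and 0.0241 for all pairs, and 35.6% of member pairs (16 of 45) but 3.04% of all pairs reached 0.3. In gene-rich neurons alone the medians were 0.18 and 0.0234, with 37.8% and 10.3% of pairs at 0.3. In gene-poor neurons they were 0.28 and 0.15, with 44.4% and 20.2%. Only 5 members are among the genes of that comparison set.

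**Figure D4:**
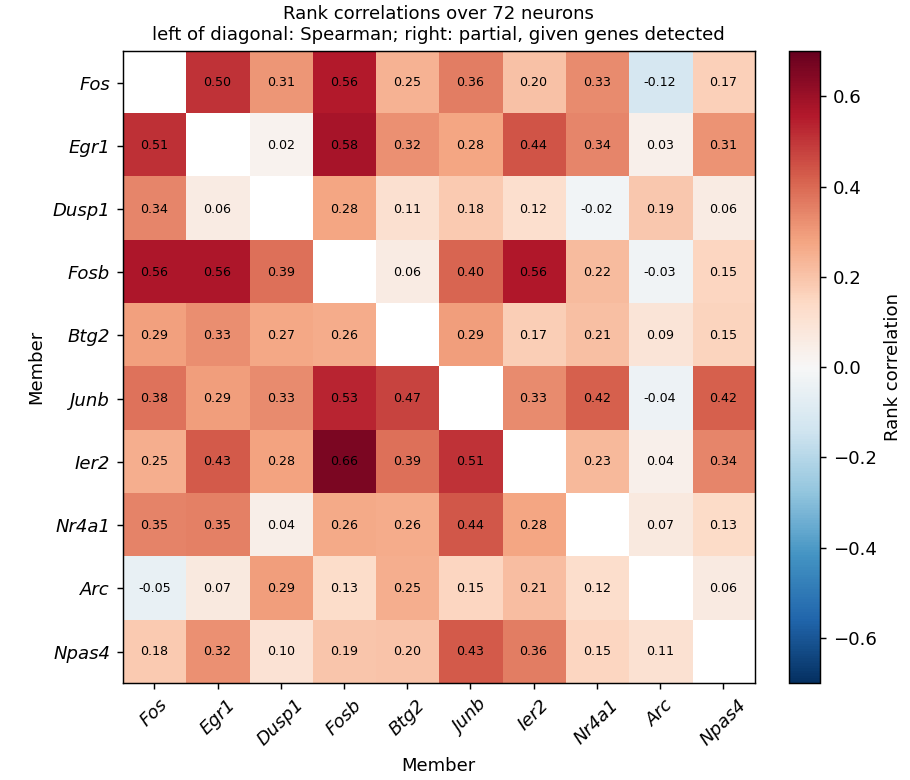
Rank correlations between members over 72 neurons, Spearman to the left of the diagonal and partial, given genes detected, to the right, with colour from -0.7 (blue) to 0.7 (red). Fosb, Fos, Egr1, Junb and Ier2 hold the strongest colours on both sides, and no value of Arc is above 0.29.

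In gene-rich neurons the closest pairs were those among Fos, Fosb and Egr1: 0.70 for Fos with Egr1, 0.69 for Fosb with Egr1 and 0.65 for Fos with Fosb. Egr1 with Ier2 (0.57) and Junb with Btg2 (0.51) came next. Dusp1 stood apart there, with -0.0664 against Fosb, -0.0703 against Egr1 and 0.0904 against Fos, and in gene-poor neurons had 0.54, 0.17 and 0.46 with the same genes. The log2 ratio of Fos to Egr1 (each + 10 CPM) had a median of 0.24 and an SD of 1.18 in gene-rich neurons. For Dusp1 to Egr1 the SD was 2.01 in the same neurons. The levels of Fos and Egr1 therefore tracked each other more closely there than those of Dusp1 and Egr1.

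Glia transcripts varied with the members. The mean level of the 9 satellite glia genes correlated with the mean level of the members at 0.43 over all neurons, 0.61 in gene-rich neurons and 0.38 in gene-poor neurons, and the partial value was 0.48. By member, the correlation with the glia level was highest for Nr4a1 (0.49), Egr1 (0.37) and Junb (0.31) and lowest for Arc (-0.0389). These 3 members reached 0.3, against 2.76% of all genes. The mean of 6 Schwann cell genes correlated with the members at 0.53. Of the glia genes, Kcnj10, a satellite glia potassium channel, correlated with the members at 0.49.

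The glia values had limits. Without the 7 glia-heavy neurons the median correlation over members with the glia genes was 0.34, against 0.24 with them, and without AM230 and AM005 it was 0.20. It was 0.0749 without the 45 neurons of the largest run of identifiers, and 0.13 when totals were rescaled by TMM factors (trimmed mean of M-values). The median over member pairs, given both genes detected and the glia level, was 0.14, against 0.21 given genes detected alone. Whether glia RNA brought the members' transcripts with it was not tested.

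As a group, the members varied with the level of the injury genes less closely than most common genes did. The list of 24 axon injury genes had a median correlation of 0.12 with the 10 members, from -0.19 for Nr4a1 to 0.42 for Dusp1. All 5458 common genes had a median of 0.26 with the same injury level. Dusp1 alone of the 10 members reached 0.3, against 23.1% of the 16068 genes. Given genes detected, the median over members was -0.0139, with Dusp1 at 0.31 and Nr4a1 at -0.30, and in gene-rich neurons it was -0.11. It was 0.21 in gene-poor neurons, where 9 of 10 members were above 0, and 0.25 over all 84 neurons with no depth limit. With TMM factors it was 0.0178.

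Single injury genes ran in both directions. Of the 240 pairs of an injury gene with a member, 30 (12.5%) reached 0.3 and 7 were at -0.3 or lower. Among pairs of the 5458 common genes 44.7% reached 0.3, and 3.04% did so given genes detected. These shares are of unlike sets, because only 15 of the 24 injury genes and 5 of the 10 members are common genes. The share given genes detected was not computed for the 240 pairs. The pairs named next are among the highest and lowest of the 240. Stat3, a transcription factor of cytokine signalling, went with Junb (0.56), Ier2 (0.47) and Fosb (0.45), and Serpina3n, a protease inhibitor, with Junb (0.49). Given genes detected these were 0.31, 0.12, 0.21 and 0.21. Cacna2d1, a calcium channel subunit raised in injured sensory neurons, went with Dusp1 (0.46), and Jun with Fos (0.40). Sprr1a, a marker of regrowing axons, ran against Junb (-0.43), as did Nts, a neuropeptide gene (-0.37), and Hspb1, a small heat shock gene, ran against Fos (-0.31).

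Atf3, a marker of axon damage that is itself induced early, was detected in 67 neurons with a median of 384 CPM. Its correlation with the mean level of the members was 0.30, and 0.13 given genes detected. Gap43, a growth cone gene of regrowing axons, had -0.23. With Jun, Klf6, Atf3 and Gadd45a left out, because they also stand in the lists of AP-1, KLF or late activity genes, the median over members was 0.0899.

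**Figure D5:**
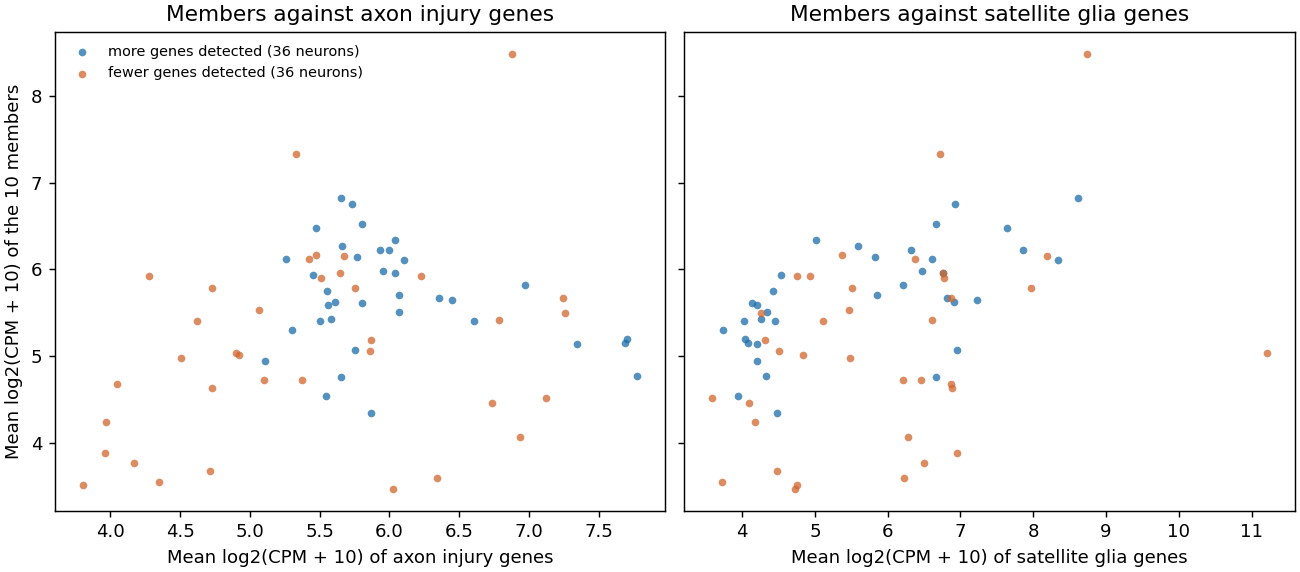
Mean log2(CPM + 10) of the 10 members against that of 24 axon injury genes (left) and 9 satellite glia genes (right), each point a neuron, gene-rich in blue and gene-poor in orange. The rank correlation is 0.19 on the left and 0.43 on the right, and AM230 is the highest point in both.

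Several other early response genes varied with the members. Of 22 such genes outside the 10, 14 reached a correlation of 0.3 with the members' mean level and 6 did so given genes detected, against 29.9% and 2.89% of all other genes. The closest were Gadd45b, a stress response gene (0.57), Zfp36, which speeds the decay of early mRNAs (0.55), Trib1, a pseudokinase gene (0.53), and Zfp36l1 (0.51). Nfkbia, the inhibitor of NF-kappaB, had 0.49.

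In the other families the counts at 0.3 were 4 of 8 AP-1 and ATF genes, 3 of 9 EGR, NR4A and KLF genes, 4 of 11 genes of MAP kinase and calcium signalling feedback, and 6 of 18 upstream factors. Given genes detected they were 0, 2, 1 and 2. Egr2, a paralog of Egr1 that also marks myelinating glia, reached 0.51 (0.49 given genes detected), was detected in 20 neurons and peaked at 9005 CPM in AM005, one of the 7 glia-heavy neurons. Egr3 did not reach 10 CPM in a neuron. Dusp6, a MAP kinase phosphatase, reached 0.46 and was the gene closest to Dusp1 (0.69). Late activity genes such as Bdnf (0.29) and Vgf (0.23) showed 2 of 12 at 0.3 and 0 given genes detected.

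Among 5453 other genes detected in at least 50% of neurons, the closest to the members' mean level was Bhlhe40, a clock-linked repressor induced by many stimuli (0.66). It was followed by Tra2b, a splicing factor (0.62), Larp1b (0.60), Map2k1, the kinase upstream of ERK (0.60), and Son, a nuclear speckle protein (0.58). Then came Kdelr1, Mbp, Srsf7, Tmcc2, Trim33, mt-Rnr1, Ccnl1, Ncoa1, H2-K1 and Zfp36, down to 0.55. Given genes detected, 11 of these 15 stayed among the 15 closest, Mbp, the myelin basic protein, stood first at 0.60, and the genes that entered included Qk and Gpm6b. The lowest were Rps18 (-0.39), Gm26384, Mir703, Gm12254 and Rps24-ps3 (-0.35). Ribosomal protein genes share reads with near-identical copies, so their counts are uncertain.

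By member, the closest of these genes was Tmem263 for Fos (0.55), Tmcc2 for Fosb (0.65), Csnk1g1 for Junb (0.63), Ubxn8 for Egr1 (0.51), Gpm6b for Nr4a1 (0.58) and Ppp2r3c for Arc (0.59). For Ier2 it was Itpk1 (0.71), for Btg2 Slc35e1 (0.68) and for Npas4 Dkc1 (0.40). Npas4 had at least 1 count in 10 neurons and Arc in 36, so their ranks rest largely on ties at 0 and on low counts. Zfp36 came second for Fos (0.54) and Mbp second for Nr4a1 (0.57).

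Heat shock and mitochondrial RNA were also compared with the members. The mean level of 10 heat shock genes correlated with that of the members at 0.30, and at 0.10 given genes detected. The mitochondrial share of counts had 0.22, and 0.31 given genes detected. The part of either in the members' levels was not tested.

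The identifiers fall into 3 runs, separated where over 30 numbers are skipped. The runs, called blocks, hold 16, 11 and 45 of the kept neurons, and no label says what they stand for. The members' mean log2(CPM + 10) had medians of 5.78, 5.64 and 5.19. With TMM factors the first block still exceeded the third, by 0.39, and the second differed from it by -0.0146. Junb was detected in 13 of 16, 2 of 11 and 15 of 45 neurons, and Nr4a1 in 8, 2 and 7. Fosb, Junb and Btg2 had medians at least 1 log2 unit higher in the first block than in the third, as did 11.7% of all genes. The second block exceeded the third by that much for Btg2, and for 4.94% of all genes. Genes detected also differed, with medians of 7632, 3788 and 5228, and its part in these values was not tested.

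The 7 neurons with Prdm12, a factor of jugular neurons, had Fos (411 to 1186 CPM), Egr1 and Dusp1 in 7 of 7. Of these 7 neurons 6 were gene-rich. Among the 30 gene-rich neurons without Prdm12 at 10 CPM, Fos and Egr1 were detected in 30 and Dusp1 in 27. The members' mean level had medians of 5.67 in the 7, 5.80 in the 6 of them that were gene-rich and 5.63 in the 30.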

How the data were processed

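The deposited table holds raw read counts per gene, which the authors made with featureCounts, per the submitters' processing notes. Not given in the sources used here were its version, the aligner, the genome build, the annotation and the strand setting. No molecular identifiers are named, so amplified copies count more than once. Gene identifiers were matched to GENCODE M21 (50376 of 50686); unmatched identifiers held at most 0.253% of a neuron's counts. Counts were divided by the neuron's total to give CPM, and 12 neurons below 5000000 counts (576966 to 3892206) were left out. The members and gene lists were chosen with earlier results of these data known.

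Each neuron is 1 sample and no animal is named, so no p-value was computed. Correlations are Spearman's. A list's level is the mean of log2(CPM + 10). Partial rank correlations are residual to the rank of genes detected at 10 CPM, members left out. No 2 neurons had identical counts. Named genes were all members, any genes of lists up to 12, in longer lists the 4 highest by share and the 4 highest and 2 lowest by correlation, and outside the lists the 15 highest and 5 lowest and 3 per member. Other list genes named (Nfkbia, Cacna2d1, and Jun, Klf6, Atf3 and Gadd45a as a set), single neurons and the split of levels at 3 CPM were chosen after their values were seen. So were the promoter core shown and the cut at 4 cores. Alternatives covered depth, TMM scaling (edgeR 4.0.16, R 4.3.3), thinning to 6732279 counts, detection at 1 count or 50 CPM, pseudocount and identifier blocks. Correlation steps were tested on simulated counts of genes with a mean of at least 10 CPM. There a known shared factor was removed, so the removal of genes detected was not itself tested. Python 3.11.15, numpy 2.4.6, pandas 2.3.3, scipy 1.17.1 and matplotlib 3.10.9 were used with seed 1. A few genes are not reported here.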

Additional observations from a re-analysis of the deposited data

Results flagged for a closer look

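Among the 12 neurons left out for depth, AM301 had Ier2 at 5421 CPM (13399 of 2471549 counts), 23.2 times the highest level among the 72 kept neurons, 233 CPM in AM072. In another of the 12, AM255, Egr1 was at 10975 CPM. Neither neuron enters the values given for the 72 kept neurons. Both enter the values recomputed over all neurons with no depth limit, among them that of the injury correlation.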

How the results depend on the processing

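Of 70 recomputed values of the main results, 62 were counted as the same. For the list of closest genes this meant that 11 of the 15 stayed. For the rest it meant that a value kept its direction and moved by less than the spread over neurons, pairs or members. That spread exceeded the value itself for the injury correlation (0.16 against 0.12). The same held for the differences by genes detected and by block (0.93 against 0.61, 0.59 and 0.46). For these results the count registers little but a change of sign, and it is not a measure of stability. The median number of members detected was 8 at a threshold of 1 count, against 5 at 10 CPM. The median correlation of the members with injury genes, 0.12, was -0.11 in gene-rich neurons and -0.0139 given genes detected, but 0.25 over all 84 neurons, 0.21 in gene-poor neurons and 0.20 without the third block. That with satellite glia genes, 0.24, was 0.39 in gene-rich neurons and 0.0749 without the third block of identifiers. The members' mean level was 0.61 log2 units higher in gene-rich than in gene-poor neurons, a difference of -0.0614 under TMM scaling and -0.23 without the third block. The second block exceeded the third by 0.46, and by -0.0146 under TMM scaling. The causes were not tested. The median over member pairs stayed between 0.14 and 0.34 under all its alternatives. Leaving out the glia-heavy neurons, leaving out AM230 and AM005, the partial correlation with the glia level, the neurons below the median glia sum and the shorter injury list were chosen after seeing the data. Of 40 recomputed shares of neurons for single members, 23 lay within the interval of the value at 10 CPM and 17 outside it. Thinned to equal depth, Junb was detected in 41.7% of neurons, as before, and Arc in 13.9%, against 12.5%. Counts are of amplified copies. No paired analysis was possible because the labels form 1 group.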
